A study of Mus musculus with 4 samples.

Results

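The uninjured spinal cord of mice without Gpr37l1 was set against that of wild-type mice, in single nuclei of the spinal dorsal horn. The KO naive library comes from Gpr37l1-/- mice and the WT naive library from Gpr37l1+/+ mice, and neither group is described as operated in its title. Its members are the nuclei with at least 300 detected genes and under 5% mitochondrial UMIs (unique molecular identifiers, each counting 1 captured RNA molecule): 37497 nuclei of the KO naive library and 19693 of the WT naive library. Together they are 57190 of the 112194 nuclei in the series. The other pair, KO SNI and WT SNI, comes from mice 1 day after a partial cut of the sciatic nerve's branches (spared nerve injury, SNI), and serves here only for values set beside the naive ones. The labels contradict themselves on injury: the treatment tag gives SNI for the KO naive library and naive for the WT SNI library. Groups follow the titles; if the tags held, the KO naive library would come from injured mice and the genotypes could not be compared without injury. How many animals went into a library, their age, sex and strain, and how the null allele was made, the labels do not say. With 1 library a side there is no replicate and no test. Ratios describe these libraries. Exact 95% intervals, given in parentheses after a value, hold counting error and leave out how animals differ.

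Gpr37l1 encodes a G protein-coupled receptor of astrocytes, the glia that clear transmitter from synapses, buffer potassium and feed neurons. Its close relative Gpr37 is best known from oligodendrocytes, the cells that make myelin. The dorsal horn receives touch, itch and pain input, which local excitatory and inhibitory neurons process with fast transmitters and neuropeptides, under the watch of microglia, the resident immune cells.

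The KO naive library held 37552 barcodes with 69572640 UMIs and a median of 1509 per barcode. The WT naive library held 19942 barcodes with 35197290 UMIs and a median of 1438.5. The naive libraries share 205 barcode sequences, 0.546% of the KO and 1.03% of the WT barcodes; of the 172 left after filtering and doublet removal, 10 fell in the same named class in both libraries. After predicted doublets were taken out (11.3% of KO and 3.03% of WT nuclei), 33244 KO and 19096 WT nuclei remained.

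Gpr37l1 (chromosome 1, 135160234 to 135167681, minus strand, GRCm38) went with the genotype labels. In astrocyte nuclei it had 0 UMIs in the KO library and 135 UMIs in the WT library, or 0 against 147 CPM (UMIs of the gene in 1000000 UMIs of the class, mitochondrial genes left out). With the KO count set to a floor of 3 UMIs the log2 ratio was -6.07, and its upper 95% limit was -5.75. A Gpr37l1 UMI was found in 0 of 1192 KO astrocyte nuclei, which allows a share of up to 0.252% (a count of 3), and in 119 of 961 WT astrocyte nuclei (12.4%). These shares are of nuclei with a captured UMI, not of nuclei that make the RNA. In WT excitatory neurons, where little of the gene is thought to be made, the share was 1.35%, at a median depth of 1483 UMIs against 923 in WT astrocytes. Oligodendrocyte precursors came next, with 3 UMIs in KO and 35 in WT nuclei (3.16 against 74.6 CPM). Gpr37 did not follow a single direction: it stood at 123 CPM in KO and 133 CPM in WT oligodendrocytes, and at 73.4 CPM in KO and 39.1 CPM in WT astrocytes. In neurons Gpr37 was higher in the KO library, at 43.8 against 25.2 CPM in excitatory and 37.9 against 21.8 CPM in inhibitory nuclei. In injured astrocytes Gpr37 showed no such gap, with 60.9 CPM in the KO SNI and 64.8 CPM in the WT SNI library. Summed oligodendrocyte markers were also higher in KO naive than in WT naive nuclei of these classes. They stood at 512 against 298 CPM in excitatory neurons, 480 against 249 CPM in inhibitory neurons and 848 against 419 CPM in astrocytes. The part of oligodendrocyte RNA in the Gpr37 values was not tested.

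**Figure D1:**
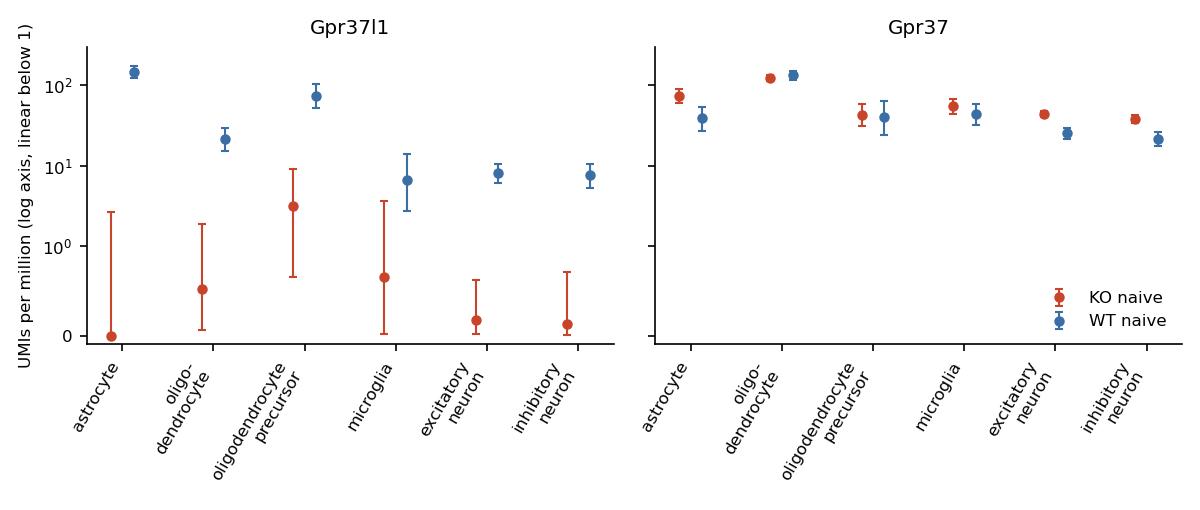
Level of Gpr37l1 (left) and Gpr37 (right) in CPM in 6 cell classes of the KO naive (red) and WT naive (blue) library; points are 1 library each and bars are exact Poisson 95% intervals, on a log axis that is linear below 1. Gpr37l1 lay lower in KO nuclei in all 6 classes, with 0 UMIs in KO astrocytes, while Gpr37 lay close to WT in oligodendrocytes and higher in KO neurons. The part of oligodendrocyte RNA in the Gpr37 values of other classes was not tested.

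Cell classes were named from marker genes, so the markers are no separate check of the names. None of the defining markers of astrocytes, microglia, oligodendrocytes or oligodendrocyte precursors was at 0 in its own class in either naive library. Astrocytes made up 3.59% of KO nuclei (1192) and 5.03% of WT nuclei (961), a ratio of shares of 0.712 (0.654 to 0.776). Microglia made up 2.52% of KO nuclei (839) and 3.57% of WT nuclei (682), a ratio of 0.707 (0.638 to 0.783). Both glial shares were thus about as much lower in the KO library, and in the SNI pair both ratios lay above 1, at 1.38 for astrocytes and 1.61 for microglia. Shares are of all nuclei of a library, so the size of the unnamed cluster 2 described below enters each ratio. Oligodendrocytes were 12.8% of KO and 13.5% of WT nuclei, and oligodendrocyte precursors 1.88% and 2.07%, with a ratio of 0.908 whose interval (0.799 to 1.03) spans 1. Excitatory neurons were 18.1% of KO and 20.2% of WT nuclei, and inhibitory neurons 11.2% and 12.6%. When nuclei needed 1000 UMIs and 500 genes the astrocyte ratio turned to 1.24, so its direction depends on that filter. The oligodendrocyte ratio ranged from 0.220 to 1.42 over the ways of clustering and filtering.

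The difference of most nuclei lay outside the named classes. An unnamed cluster 2, led by Actb, Aldoc, Gapdh and genes of mitochondrial proteins such as Romo1 and Uqcr11, held 4774 KO nuclei (14.4%) and 164 WT nuclei (0.859%), a ratio of 16.7 (14.3 to 19.7). The SNI pair went the other way, with 290 nuclei in the KO SNI library and 4808 in the WT SNI library. The KO naive and WT SNI libraries, the ones whose titles and treatment tags disagree, are therefore alike in this cluster and apart from the other two. What sets this cluster was not tested. Unnamed nuclei in all were 49.5% of KO and 42.8% of WT nuclei. Cluster 2 held 1.15% of KO SNI and 19.7% of WT SNI nuclei. The ratios of shares of the 6 named classes all lay below 1 in the naive pair and above 1 in the SNI pair. The part of cluster 2 in those ratios was not tested.

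**Figure D2:**
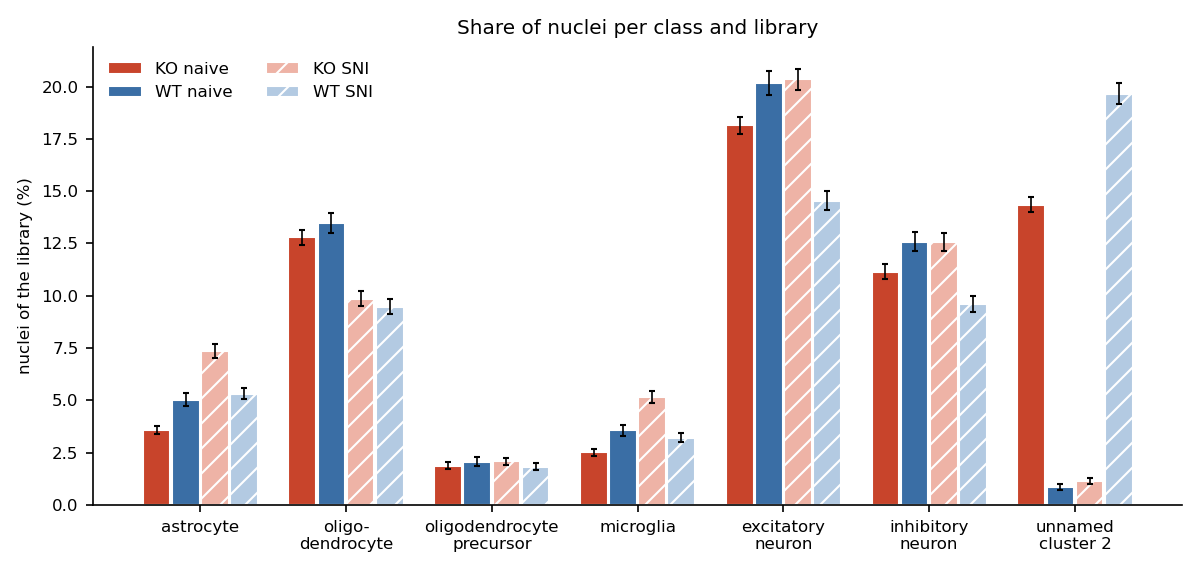
Nuclei of each class as a percent of the nuclei of their library, for KO naive (solid red), WT naive (solid blue), KO SNI (hatched light red) and WT SNI (hatched light blue); bars are 1 library each and whiskers are Clopper-Pearson 95% intervals. In the naive pair the KO bar is lower for astrocytes and microglia, and cluster 2 stands at 14.4% in KO naive and 0.859% in WT naive nuclei.

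Genes were compared within a class where they had at least 50 UMIs over the naive pair, and called where the levels differed by 2-fold or more. Counts of calls followed 2 patterns. In astrocytes 522 of 7271 genes (7.18%) were higher in the KO library and 187 (2.57%) lower, and in oligodendrocytes 831 of 10315 (8.06%) were higher and 305 (2.96%) lower. Microglia had the opposite balance, with 112 of 7914 genes (1.42%) higher and 368 (4.65%) lower, and so had excitatory neurons, with 131 of 13347 (0.981%) higher and 717 (5.37%) lower, and inhibitory neurons, with 125 of 12350 (1.01%) higher and 616 (4.99%) lower. Oligodendrocyte precursors were near balance, with 108 of 5241 genes (2.06%) higher and 134 (2.56%) lower. Other scalings moved that balance: with TMM factors the split was 142 higher and 108 lower in precursors, 187 and 261 in microglia, 198 and 566 in excitatory neurons, and 165 and 517 in inhibitory neurons. Median-of-ratios factors gave 122 higher and 119 lower in precursors, 180 and 269 in microglia, 195 and 577 in excitatory and 174 and 500 in inhibitory neurons. TMM moved the median of all microglial genes from -0.03 to 0.07 on the log2 scale. When the naive libraries were clustered without the SNI pair, astrocytes had 191 genes higher and 266 lower. The excess of higher genes in that class was thus absent under that clustering. It was kept under the others: a separate clustering per library gave 829 higher and 400 lower, and Leiden resolution 0.5 gave 523 and 186. Astrocytes had 526 higher and 186 lower with doublets kept, and 490 and 123 with nuclei of at least 1000 UMIs and 500 genes. With genes of at least 200 UMIs, astrocytes had 204 higher and 27 lower, and oligodendrocytes 446 higher and 94 lower. With genes of at least 1 UMI, astrocytes had 2693 higher and 3234 lower, and oligodendrocytes 1821 higher and 4348 lower. At that smaller minimum the floor of 3 UMIs for a count of 0 can set the direction of a call. Those splits therefore cannot show the balance. Precursors turned to 92 higher and 56 lower with nuclei of at least 1000 UMIs and 500 genes, and to 85 and 30 with nuclei thinned to 1000 UMIs.

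Microglia of the KO library held less of the RNA that sets microglia apart. Summed over 12 defining markers, they held 2562 CPM in KO and 5456 CPM in WT nuclei, and all 12 were lower, 6 of them by 2-fold or more. Among them were P2ry12, the ADP receptor that steers microglial processes toward injury, at 118 CPM in KO and 368 CPM in WT nuclei (-1.64, -1.90 to -1.38), and C1qc, a subunit of complement C1q, at 88.8 CPM in KO and 226 CPM in WT nuclei (-1.35). Csf1r, the receptor that keeps microglia alive, stood at 195 CPM in KO and 350 CPM in WT nuclei (-0.85, -1.07 to -0.62). The same 12 markers also summed lower in KO nuclei of other classes, at 359 against 534 CPM in oligodendrocytes and 263 against 347 CPM in precursors. They stood at 196 against 247 CPM in excitatory neurons, 176 against 218 CPM in inhibitory neurons and 292 against 321 CPM in astrocytes. The part of a library-wide difference in the microglial values was not tested.

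Of 16 further homeostatic genes with enough UMIs, which mark resting microglia and were kept out of the clustering, 15 were lower in the KO library and 9 by 2-fold or more, with a median log2 ratio of -1.08 against -0.03 over all tested genes of the class. Siglech, a sialic acid-binding lectin, stood at 154 CPM in KO naive, 362 in WT naive, 283 in KO SNI and 110 CPM in WT SNI nuclei. Entpd1, the ectonucleotidase that breaks down extracellular ATP, stood at 134 CPM in KO naive and 338 in WT naive nuclei, and at 190 in KO SNI and 95.7 CPM in WT SNI nuclei. Both genes were thus lowest in the KO naive and WT SNI libraries. Mef2c, a transcription factor that restrains microglial responses, stood at 385 CPM in KO and 870 CPM in WT nuclei (-1.18, -1.33 to -1.03). Selplg, Gpr34, the transforming growth factor receptor Tgfbr1, Maf and Itgam were also past 2-fold, at -1.15, -1.12, -1.12, -1.10 and -1.06.

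Genes of activated microglia were lower as well, not higher: 14 of 16 tested lay below WT and 6 by 2-fold or more, with a median of -0.60. Of all tested microglial genes 52.5% were lower and 4.65% lower by 2-fold or more, with a median of -0.03. Trem2, a lipid-sensing receptor needed for the activated state, stood at 31.3 CPM in KO and 88.7 CPM in WT nuclei (-1.50, -2.04 to -0.98), and its signalling adaptor Tyrobp at 19.6 CPM in KO and 60.7 CPM in WT nuclei (-1.63). Irf8, a transcription factor that sets microglial identity, stood at 37.2 CPM in KO and 87.7 CPM in WT nuclei, and P2rx4, the ATP-gated channel studied in nerve injury pain, at 43.1 CPM in KO and 81.0 CPM in WT nuclei (-0.91). Apoe, at -0.20 (-0.50 to 0.11), Ctsb, at 0.04, and Spp1, at 0.40 (-0.41 to 1.26), had intervals that span 0. The medians of both lists had the other sign in the SNI pair, 0.99 for homeostatic and 0.75 for activated genes.

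Outside the lists, the lowest microglial genes included Cd84, a homophilic receptor of immune cells, at 44.4 CPM in KO and 164 CPM in WT nuclei (-1.88). Pdgfb, Cables1, Anxa3, Lcp2, Nrros and F11r also stood low, between -1.98 and -1.72. Numb, an inhibitor of Notch signalling, was lower in microglia at 314 CPM in KO and 756 CPM in WT nuclei (-1.27), while it lay between -0.24 and 0.21 in each of the other 5 classes. Msn, which links actin to the membrane, was likewise lower in microglia, at 32.6 CPM in KO and 79.1 CPM in WT nuclei (-1.28), and at 0.26 to 0.31 in the 3 other classes where it was tested.

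Neuron RNA moved the other way in the same nuclei. The 8 general neuron markers summed to 3323 CPM in KO and 2245 CPM in WT microglia, more in KO than the 2562 CPM of the microglial markers, and none was at 0 in either library. Each KO microglial nucleus held a median of 4 UMIs of the 12 microglial markers, and each WT nucleus 7, at a mean depth of 1837 UMIs in KO and 1534 in WT nuclei. Nuclei with no such UMI were 30 of 839 in KO (3.58%) and 4 of 682 in WT (0.587%). The class joins 2 clusters, and the difference was there in each. In the larger one (594 KO and 481 WT nuclei) 15 of 15 tested homeostatic genes were lower with a median of -0.80, and in the smaller one (245 KO and 201 WT nuclei, median depth 1457 and 1451 UMIs) 13 of 13 were lower with a median of -1.09. For the SNI pair the larger cluster had a homeostatic median of 0.04 and the smaller one of 1.66, at median depths of 1194 UMIs in KO SNI and 3234 UMIs in WT SNI nuclei. The part that neuron RNA has in the lower microglial values was not tested, and fewer transcripts per cell and more RNA from other cells in the same droplet cannot be told apart here. The homeostatic median stayed between -0.70 and -1.16 over the alternatives run, and the activated one between -0.12 with nuclei thinned to 1000 UMIs and -0.80.

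**Figure D3:**
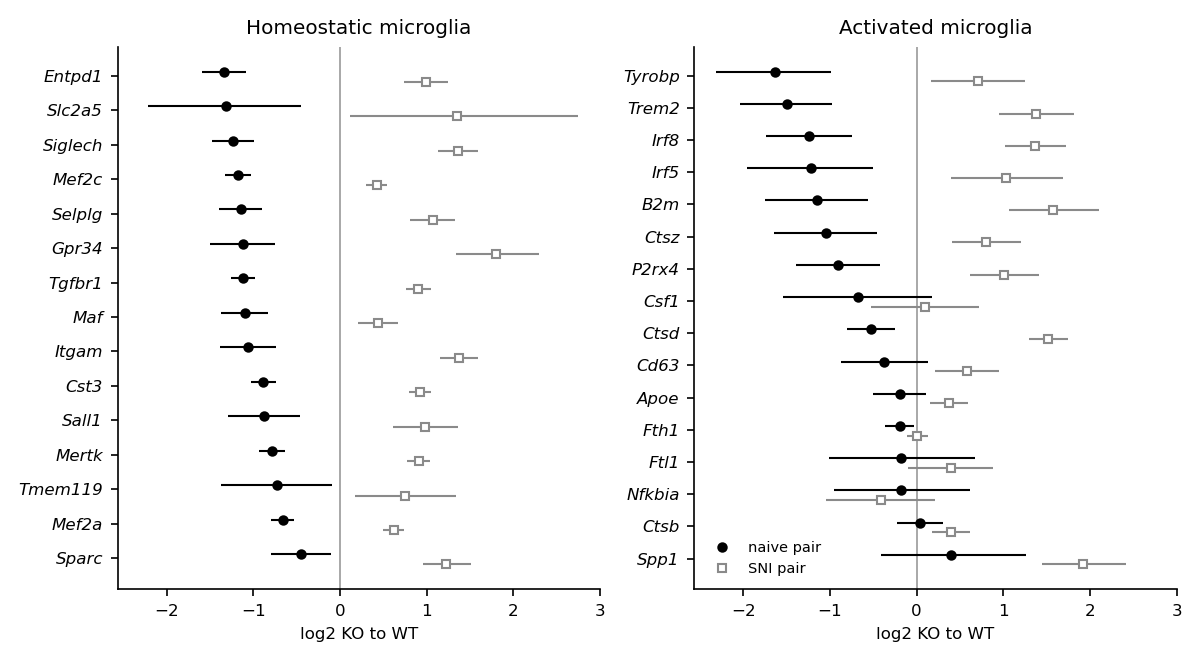
Log2 ratio of KO to WT in microglia for 15 of the 16 tested members of the homeostatic list (left) and all 16 of the activated list (right), in the naive pair (filled circles) and the SNI pair (open squares); lines are exact 95% counting intervals, and values below 0 are lower in KO. In the naive pair 15 of the 16 tested homeostatic genes lie below 0, and these 15 are the ones drawn, so the panel shows no member above 0; of the activated genes, 14 of 16 lie below 0, while the SNI medians are 0.99 and 0.75.

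Oligodendrocytes of the KO library had lower levels of myelin genes, by less than 2-fold. Of 23 tested genes for myelin proteins and lipids, 21 were lower and none by 2-fold or more, with a median of -0.34 against 0.06 over all genes of the class; in the SNI pair the median was 0.08. Mal, a proteolipid of compact myelin, stood at 228 CPM in KO and 412 CPM in WT nuclei (-0.85, -1.00 to -0.71). Myrf, the transcription factor that switches on myelin genes, stood at 82.2 CPM in KO and 146 CPM in WT nuclei (-0.83), and Opalin, a membrane glycoprotein of mature oligodendrocytes, at 182 CPM in KO and 311 CPM in WT nuclei (-0.77). Mbp, myelin basic protein, stood at 1758 CPM in KO and 2332 CPM in WT nuclei (-0.41, -0.46 to -0.35). Omg, at 0.16, and Tppp, at 0.13, lay slightly above WT, with intervals that span 0. Of 13 genes of oligodendrocyte stress and injury, 5 were higher and 8 lower, with a median of -0.04; the alarmin Il33 stood at 226 CPM in KO and 336 CPM in WT nuclei (-0.57, -0.73 to -0.42).

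The genes furthest above WT in oligodendrocytes included Erc2, a scaffold of the presynaptic active zone, at 347 CPM in KO and 63.0 CPM in WT nuclei (2.46, 2.18 to 2.75), the neuronal adhesion gene Cntn6 at 201 CPM in KO and 37.9 CPM in WT nuclei (2.41), and the ephrin receptor gene Epha6 at 2.35. Of the 831 higher genes, 680 (81.8%) are at least 2-fold higher in neurons than in oligodendrocytes when read in the WT SNI library, which enters no naive ratio, against 13.5% of all tested genes. Of the 305 lower genes, 15 (4.92%) are. General neuron markers summed to 2353 CPM in KO and 1404 CPM in WT oligodendrocytes, and precursor markers to 675 CPM in KO and 330 CPM in WT. The transcription factors Rora and Npas2 of the clock list, at 1.65 and 2.35, stood with these. Of 15 tested clock genes 14 were higher in oligodendrocytes (median 0.32), where 55.2% of all tested genes were, and in astrocytes the same list went the other way, with 15 of 17 lower (median -0.39). Of all tested astrocyte genes 42.9% were lower. The part of neuron RNA in these ratios was not tested. The highest value among annotated genes of at least 100 UMIs was that of Slc41a2, a magnesium transporter gene, at 25.3 CPM in KO and 2.79 CPM in WT nuclei (3.18, 1.91 to 4.83), but it was 0.35 with nuclei of at least 1000 UMIs.

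Among the genes lowest in KO oligodendrocytes, Tnni1 stood apart. It encodes slow skeletal troponin I and lies on chromosome 1 (135779434 to 135810989, GRCm38), 0.63 Mb from Gpr37l1. In oligodendrocytes it had 22 UMIs in KO and 248 in WT nuclei, or 5.67 CPM against 138 CPM (-4.61, -5.31 to -3.98). A Tnni1 UMI was found in 22 of 4253 KO nuclei (0.517%) and in 241 of 2573 WT nuclei (9.37%), so the gap was spread over many nuclei. In the SNI pair, which shares no library with the naive one, Tnni1 stood at 13.3 CPM in KO and 116 CPM in WT oligodendrocytes (-3.13, -3.82 to -2.51). Over all nuclei it had 84 UMIs in KO naive, 598 in WT naive, 71 in KO SNI and 667 in WT SNI nuclei, low in both KO libraries and high in both WT libraries. Its log2 ratio in naive oligodendrocytes lay between -4.12 and -4.99 over the alternatives. Haemoglobin transcripts gave similarly low values with no such agreement: Hba-a1 stood at 1.80 CPM in KO and 52.4 CPM in WT naive oligodendrocytes, but at 62.4 CPM in KO SNI and 12.7 CPM in WT SNI. Tgfbr2, a receptor for transforming growth factor beta, stood at 8.76 CPM in KO and 44.0 CPM in WT nuclei (-2.33, -2.95 to -1.73), and at -0.06 in the SNI pair.

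A further cluster 3 carried oligodendrocyte markers but also leading genes of committed precursors, and was kept apart. It held 1825 KO nuclei (5.49%) and 1942 WT nuclei (10.2%), a ratio of 0.540 (0.506 to 0.576), against 1.23 in the SNI pair. In it 682 of 9326 genes (7.31%) were higher in KO and 278 (2.98%) lower. Grik1, a kainate receptor subunit, stood at 162 CPM in KO and 780 CPM in WT nuclei (-2.27, -2.43 to -2.11), and at 98.7 CPM in KO SNI and 575 CPM in WT SNI nuclei (-2.54). A Grik1 UMI was found in 17.8% of KO naive, 44.1% of WT naive, 8.06% of KO SNI and 37.6% of WT SNI nuclei of cluster 3. Arntl2, a partner of the clock protein CLOCK, stood at 9.55 CPM in KO and 70.4 CPM in WT naive nuclei (-2.88) and at 11.7 CPM in KO SNI and 76.6 CPM in WT SNI nuclei (-2.71). Both genes were thus low in both KO libraries in this cluster. Over all nuclei Grik1 showed no such gap, with 449 CPM in KO naive and 420 CPM in WT naive nuclei, and in the named oligodendrocytes it stood at 225 CPM in KO and 203 CPM in WT nuclei. Whether cluster 3 holds the same kinds of nuclei in the 4 libraries was not tested. Hmcn1, an extracellular matrix gene, had 9 UMIs in KO and 292 UMIs in WT naive nuclei of the cluster, and stood at 153 CPM in KO SNI and 106 CPM in WT SNI nuclei.

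Oligodendrocyte precursors of the KO library held less of their own marker RNA. The markers summed to 6908 CPM in KO and 11088 CPM in WT nuclei, and all 8 tested were lower. Pdgfra, the growth factor receptor that drives precursor division, stood at 235 CPM in KO and 552 CPM in WT nuclei (-1.23, -1.50 to -0.97), and Cspg4, the NG2 proteoglycan, at 120 CPM in KO and 254 CPM in WT nuclei (-1.08). Of 9 genes for precursor state and differentiation, 6 were lower, with a median of -0.37 against 0.06 over the class. Sox10, the transcription factor that holds the lineage, stood at 119 CPM in KO and 219 CPM in WT nuclei (-0.88, -1.28 to -0.48), and Sox6 at -0.51. Sox10 in the SNI pair stood at 0.04 and Pdgfra at 415 CPM in KO SNI and 473 CPM in WT SNI nuclei. General neuron markers summed to 3265 CPM in KO and 2267 CPM in WT precursors, and their part in these values was not tested.

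All 11 tested genes of cholesterol synthesis were higher in KO precursors, with a median of 0.50, where 54.9% of all tested genes of the class were. Cyp51, a sterol demethylase, stood at 61.1 CPM in KO and 32.0 CPM in WT nuclei (0.93, 0.10 to 1.86). The intervals of 9 of the 11 members span 0, and in the SNI pair the median was -0.20. Other classes leaned the same way, with 11 of 12 members higher in microglia (median 0.33), 12 of 18 in oligodendrocytes (0.26) and 15 of 20 in excitatory neurons (0.23), while astrocytes (10 of 19) and inhibitory neurons (11 of 20) were near balance. Genes lowest in KO precursors included Etv5, a transcription factor downstream of growth factor signalling, at 62.1 CPM in KO and 179 CPM in WT nuclei (-1.53, -2.03 to -1.03), which stood at 0.72 in the SNI pair. Tmem163, a zinc transporter, stood at 83.2 CPM in KO and 234 CPM in WT precursors (-1.49) and at -1.10 in the SNI pair; Aldh1a1, a retinaldehyde dehydrogenase, stood at 61.1 CPM in KO and 149 CPM in WT precursors (-1.29) and at -1.56 in the SNI pair. Man1a, a Golgi mannosidase, was the highest at 136 CPM in KO and 27.7 CPM in WT nuclei (2.29, 1.47 to 3.24).

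Astrocytes showed neuron RNA in the KO library together with a lower level of several signalling genes. Among the highest genes were Ankfn1, Dach1, Hs3st4, Mmp16, Arhgap6, Epha6, Etl4 and Dlgap2, at 2.92 to 2.53; Ankfn1 stood at 116 CPM in KO and 15.2 CPM in WT nuclei, and at 0.88 when the naive pair was clustered without the SNI pair. Of the 522 higher genes, 408 (78.2%) are at least 2-fold higher in neurons than in astrocytes of the WT SNI library, against 10.9% of all tested genes, and of the 187 lower genes 3 (1.60%) are. General neuron markers summed to 1891 CPM in KO and 932 CPM in WT astrocytes, with 4 of the 8 past 2-fold and none at 0, and oligodendrocyte markers to 848 CPM in KO and 419 CPM in WT. Astrocyte markers were close, at 2423 CPM in KO and 2655 CPM in WT nuclei. Their part in the calls was not tested.

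Genes lower in KO astrocytes included Hes1, the main transcriptional target of Notch, at 34.1 CPM in KO and 95.6 CPM in WT nuclei (-1.49, -2.03 to -0.96), and Dtx1, a Notch regulator, at 32.0 CPM in KO and 64.1 CPM in WT nuclei (-1.00). Dtx1 lay between -0.08 and 0.24 in the 3 other classes where it was tested, and in the SNI pair Hes1 stood at -0.18 and Dtx1 at 0.10. Gpd1, which makes glycerol 3-phosphate, stood at 23.2 CPM in KO and 73.9 CPM in WT nuclei (-1.67), and Son, a splicing cofactor, at 652 CPM in KO and 1647 CPM in WT nuclei (-1.34, -1.46 to -1.22). Of the 12 tested genes of the GPR37 family, its ligand, hedgehog partners and related receptors, 8 were lower and 3 past 2-fold, Gpr37l1 among them. Their median was -0.32, against 0.08 over all tested astrocyte genes, of which 42.9% were lower and 2.57% lower by 2-fold or more. Gli1, the transcription factor that reads out hedgehog signalling, stood at 24.0 CPM in KO and 53.2 CPM in WT astrocytes (-1.15, -1.83 to -0.49). In the SNI pair it stood at 18.4 CPM in KO and 42.7 CPM in WT (-1.22, -1.91 to -0.55), so it was lower in both KO libraries. The related factors Gli2 and Gli3, at -0.23 (-0.52 to 0.06) and 0.01, and the hedgehog inhibitor Hhip, at 0.02, had intervals that span 0. The 3 tested reactive genes, Gfap, Stat3 and H2-K1, were higher at 0.60, 0.71 and 0.48, the last with an interval that spans 0. Ephb1, an ephrin receptor, stood at 110 CPM in KO and 28.2 CPM in WT astrocytes (1.97, 1.36 to 2.63).

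**Figure D4:**
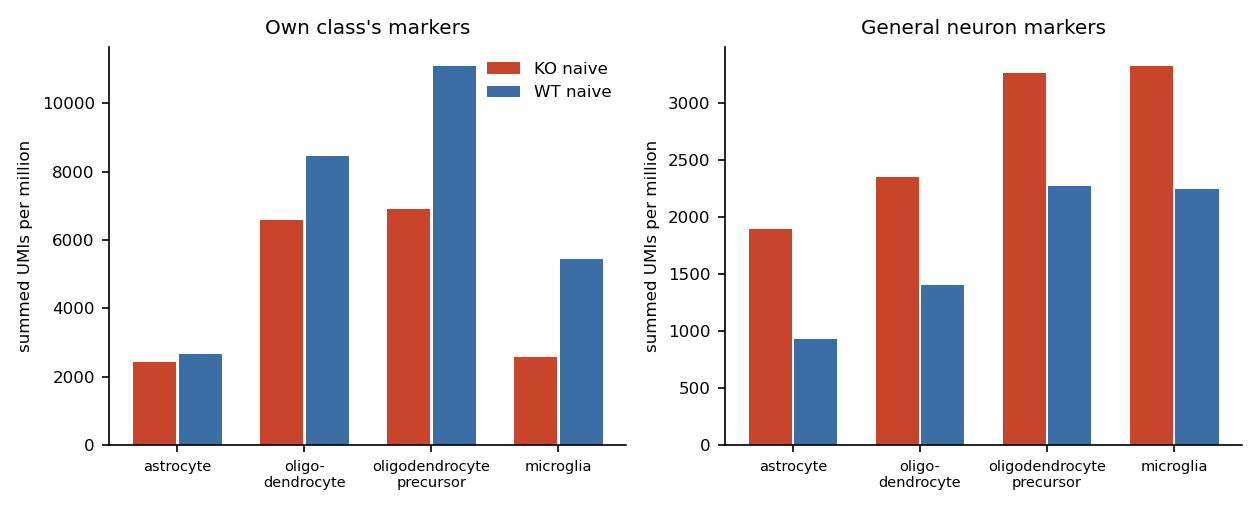
Summed CPM of each glial class's own markers (left) and of 8 general neuron markers (right), in the KO naive (red) and WT naive (blue) library; bars are 1 library each, with no error bar. Own markers are lower in KO for all 4 classes, with the largest ratio in microglia (2562 against 5456) and the largest gap in CPM in precursors (6908 against 11088), and neuron markers are higher in KO for all 4.

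Excitatory and inhibitory neurons made up 13 named clusters, 7 excitatory and 6 inhibitory, with 9742 KO and 6255 WT nuclei. The makeup of the neurons was similar: the share of each cluster among named neurons had a KO to WT ratio between 0.907 and 1.17. In 2 clusters the interval lay above 1, in none below. The cluster led by Bmp6, Atp10a, Plch2 and Nts was 13.9% of KO and 12.02% of WT neurons (1.16, 1.06 to 1.27), and that led by Hpse2, Rai14, Col18a1 and Pde3a was 8.57% of KO and 7.32% of WT neurons (1.17, 1.04 to 1.31).

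Several peptides of the dorsal horn were lower in KO excitatory neurons. Of 18 tested, 13 were lower, none by 2-fold, and 1 was higher by 2-fold, with a median of -0.15 against -0.02 over the class. Sst, somatostatin, stood at 178 CPM in KO and 321 CPM in WT excitatory nuclei (-0.85, -0.94 to -0.76), and at 245 CPM in KO SNI and 318 CPM in WT SNI nuclei. Nts, neurotensin, stood at 80.0 CPM in KO and 141 CPM in WT nuclei (-0.82), and Penk, the enkephalin precursor, at 94.95 CPM in KO and 128 CPM in WT nuclei (-0.43). Grp, the itch peptide gastrin-releasing peptide, stood at 32.7 CPM in KO and 43.9 CPM in WT nuclei (-0.42, -0.65 to -0.20). Tac1, the substance P precursor, at -0.07, Cck at 0.08 and Npy at 0.10 had intervals that span 0. Nxph1, a secreted ligand of neurexins on the same list, stood at 426 CPM in KO and 197 CPM in WT excitatory nuclei (1.12, 1.03 to 1.21), but at 1522 CPM in KO and 1397 CPM in WT inhibitory nuclei. Inhibitory neurons had 9 peptides higher and 8 lower (median 0.02), with Sst at -0.52, Penk at -0.39 and Npy at -0.35.

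Among 25 tested receptors of peptides, opioids and amines, the one for gastrin-releasing peptide stood lowest in excitatory neurons. Grpr, which relays itch, stood at 6.58 CPM in KO and 18.1 CPM in WT excitatory nuclei (-1.46, -1.89 to -1.03), and at 14.5 CPM in KO SNI and 12.1 CPM in WT SNI nuclei. With nuclei thinned to 1000 UMIs the Grpr ratio was -0.86. The mu opioid receptor Oprm1 stood at 53.5 CPM in KO and 76.4 CPM in WT excitatory nuclei (-0.51, -0.69 to -0.34), and at 83.5 CPM in KO and 153 CPM in WT inhibitory nuclei (-0.87, -1.03 to -0.72). Oprm1 in the SNI pair lay at -0.17 and 0.05 in these classes. Npy1r, a receptor for neuropeptide Y, was at -0.71 in excitatory nuclei, while the serotonin receptor Htr2c stood at 320 CPM in KO and 160 CPM in WT excitatory nuclei (1.00, 0.90 to 1.10). Over the whole list 12 receptors were higher and 13 lower in excitatory neurons, and 14 higher and 7 lower in inhibitory neurons. Outside that list, Htr2b and the prostaglandin receptor Ptger4 were among the lowest genes of inhibitory neurons, at 11.6 CPM in KO and 38.1 CPM in WT nuclei (-1.71, -2.09 to -1.34) and at -1.62.

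Ion channel and transmitter receptor genes were for the most part slightly higher in KO neurons. Of glutamate receptor genes, 17 of 22 were higher in excitatory and 15 of 23 in inhibitory neurons, with medians of 0.19 and 0.10. Of GABA and glycine receptor and chloride transporter genes, 15 of 20 and 16 of 20 were higher, and of potassium and HCN channel genes 21 of 33 and 22 of 33. Sodium and calcium channel genes were higher in 16 of 22 and 14 of 22. The medians of these lists lay between 0.06 and 0.19, where all genes of the classes lay at -0.02 and -0.01, with 47.6% and 48.7% of them higher. Slc12a2, the chloride importer NKCC1, stood at 132 CPM in KO and 82.9 CPM in WT excitatory nuclei (0.67, 0.52 to 0.81), and at 128 CPM in KO and 74.6 CPM in WT inhibitory nuclei (0.78, 0.60 to 0.96). Slc12a2 is also made by oligodendrocyte lineage cells. Oligodendrocyte markers summed to 512 CPM in KO and 298 CPM in WT excitatory nuclei, and their part in the Slc12a2 values was not tested. Gabrb2, a GABA-A receptor subunit, was at 0.32 in excitatory and 0.78 in inhibitory neurons.

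Scn9a, the sodium channel Nav1.7 known for its part in pain, went against its list. It stood at 67.8 CPM in KO and 105 CPM in WT excitatory nuclei (-0.63, -0.78 to -0.48), and at 69.1 CPM in KO and 125 CPM in WT inhibitory nuclei (-0.86, -1.03 to -0.69). In the SNI pair it lay at -0.05 and -0.10. Kcnt1, a sodium-activated potassium channel, was also lower, at 146 CPM in KO and 229 CPM in WT excitatory nuclei (-0.65), and Cacna2d3, an auxiliary calcium channel subunit, was higher, at 294 CPM in KO and 156 CPM in WT excitatory nuclei (0.91, 0.81 to 1.01). Grik3, a kainate receptor subunit, was the glutamate receptor gene past 2-fold, at 33.8 CPM in KO and 15.3 CPM in WT excitatory nuclei (1.15, 0.83 to 1.48).

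Many of the genes highest in KO neurons belong to glia. In excitatory neurons they included the astrocyte water channel Aqp4, at 19.5 CPM in KO and 7.002 CPM in WT nuclei (1.48), the glutamate transporter Slc1a3, at 1.45, and the oligodendrocyte gene Bcas1, at 1.47; in inhibitory neurons they included Megf10, Ninj2, St18 and Prr5l, at 1.88 to 1.51. Of the 131 higher genes in excitatory neurons, 97 (74.0%) are at least 2-fold higher in the highest glial class of the WT SNI library, against 25.05% of all tested genes, and in inhibitory neurons 86 of 125 (68.8%) against 25.4%. Of the lower genes 16.3% and 15.7% are. Microglial markers went the other way, with 10 of 12 tested lower in excitatory neurons (196 against 247 CPM summed). In inhibitory neurons 8 of 10 tested were lower (176 against 218 CPM). The part of glial RNA in these ratios was not tested. Meis1, a homeobox transcription factor, was higher in inhibitory neurons at 62.8 CPM in KO and 30.2 CPM in WT nuclei (1.05, 0.78 to 1.34), but it lay at -0.80 when each library was clustered alone.

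A pair of large clusters without a class name, both with glial markers below the level of other nuclei, were compared by number. Cluster 0 (4742 KO and 3244 WT nuclei), led by genes that include Il1rapl2 and Lgr5, had 114 of 13964 genes (0.816%) higher and 941 (6.74%) lower, and 14 of 17 tested peptides were higher with a median of 0.23. Immediate early genes, which neurons switch on when active, were higher in 12 of 14 cases there, with a median of 0.51, against 46.4% of all genes of the cluster and a median of -0.04 in the SNI pair. They were higher in 9 of 12 cases in inhibitory neurons, where the median of 0.26 turned to -0.04 with doublets kept, and in excitatory neurons 6 were higher and 5 lower (median 0.22). Cluster 7 (1228 KO and 656 WT nuclei), led by Cdh23, Megf11 and Meis2, had 96 of 9472 genes (1.01%) higher and 370 (3.91%) lower. Gpr37 was among its highest, at 38.0 CPM in KO and 12.3 CPM in WT nuclei (1.63), beside the oligodendrocyte gene Mobp at 44.1 CPM in KO and 13.5 CPM in WT nuclei (1.71).

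A few genes differed in every class. Rnf152, a ubiquitin ligase of the lysosome, was the highest by its median over classes, between 1.80 in inhibitory neurons and 2.78 in oligodendrocytes, and past 2-fold in all 6. In excitatory neurons it stood at 211 CPM in KO and 59.0 CPM in WT nuclei (1.84), and over all nuclei at 230 CPM in KO naive, 61.5 in WT naive, 166 in KO SNI and 130 CPM in WT SNI nuclei. The WT naive library was thus the one that stood low, and in the SNI pair the class ratios lay between 0.27 and 0.55. Rnf152 kept its direction in every alternative run. Catspere2 was past 2-fold in all 6 classes as well, at 1.16 to 2.44. Over all nuclei it stood at 134 CPM in KO naive, 54.4 in WT naive, 53.8 in KO SNI and 93.8 CPM in WT SNI. Its ratio over all nuclei thus had the other sign in the SNI pair. The related Catspere1, of the sperm calcium channel complex, had 231 UMIs in KO and 2 UMIs in WT excitatory nuclei (5.99, 4.12 to 9.04). In the SNI pair Catspere1 had 4 UMIs in KO and 59 in WT excitatory nuclei, so it was high in the KO naive and WT SNI libraries and low in the other pair of libraries. Vwc2l, Efna5, Grm8, Clstn2 and the noncoding Rian were higher in every class tested, most in glia. In excitatory neurons they lay between 0.17 for Vwc2l and 0.55 for Clstn2, short of 2-fold. Grm8, for example, lay between 0.28 in inhibitory neurons and 2.26 in oligodendrocytes. The part of neuron RNA in the glial ratios of these genes was not tested.

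On the low side, the genes past 2-fold in all 6 classes included Snrpf, a core protein of the spliceosome, at -1.06 to -1.58, the arginine transferase gene Ate1, at -1.00 to -1.43, and AY036118 (chromosome 17), at -1.21 to -1.38. The RNA helicase genes Ddx18 and Ddx21, which act in ribosome assembly, were lower in each of 5 classes tested, at -0.67 to -1.70 and -1.02 to -1.56. Over all nuclei Ate1 stood at 39.4 CPM in KO naive, 99.0 in WT naive, 66.7 in KO SNI and 78.6 CPM in WT SNI nuclei, so the KO and WT naive libraries were the lowest and the highest of the 4. Of 8101 genes tested in at least 4 classes, 5 were past 2-fold higher and 62 past 2-fold lower in at least 4. The classes share the same 2 libraries, so these are not independent repeats.

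**Figure D5:**
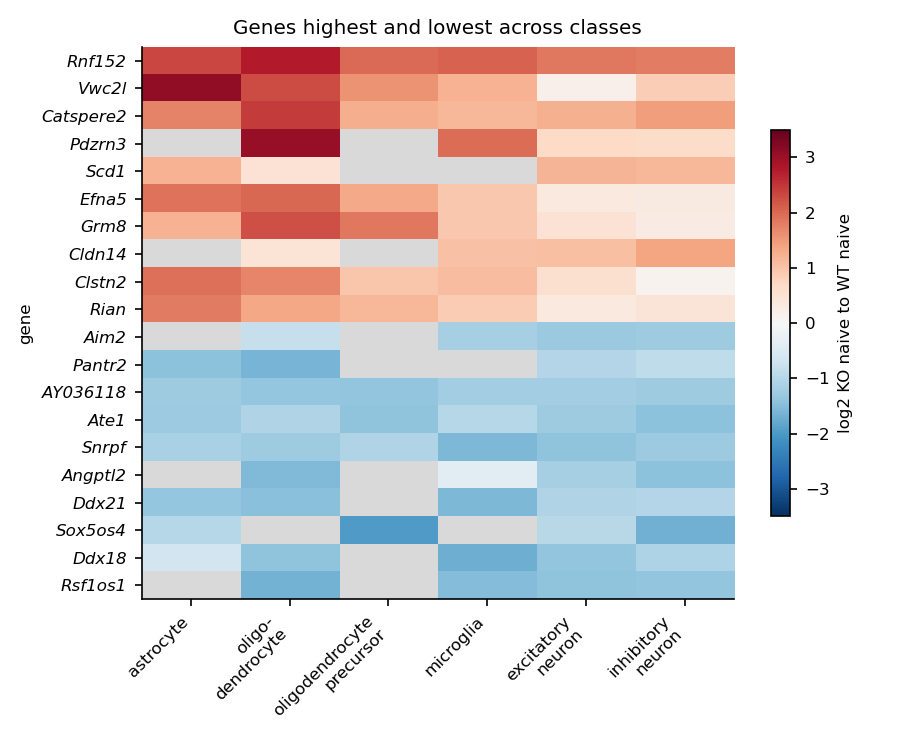
Log2 ratio of KO naive to WT naive (colour, red higher in KO and blue lower) for the 10 highest and 10 lowest genes by median over 6 classes; grey marks a gene with under 50 UMIs over the pair in that class. Rnf152 and Catspere2 are red in all 6 columns, and Snrpf, Ate1 and AY036118 are blue in all 6.

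Genes of the protein synthesis and respiration machinery lay slightly below WT in each class. Of ribosomal protein genes, 62 of 75 were lower in astrocytes, 74 of 77 in oligodendrocytes, 62 of 73 in precursors, 70 of 76 in microglia, 72 of 77 in excitatory and 65 of 77 in inhibitory neurons, with medians of -0.30, -0.38, -0.36, -0.38, -0.24 and -0.16. Of all tested genes 42.9%, 44.8%, 45.1%, 52.5%, 52.4% and 51.3% were lower in these classes. In the SNI pair the ribosomal medians were -0.02, -0.11, -0.21, 0.26, -0.08 and -0.10, so microglia had the other sign there. Nuclear genes of the respiratory chain were lower in 28, 30, 21, 25, 28 and 27 of 33, 33, 30, 33, 33 and 33 tested, in the same order. The precursor median of the ribosomal list and the precursor and oligodendrocyte medians of the respiratory list turned above 0 with nuclei of at least 1000 UMIs. In the SNI pair the respiratory medians were -0.26, -0.30, -0.54, 0.04, -0.27 and -0.28 in the same order of classes. They were thus below 0 there too, except in microglia. Malat1, the abundant noncoding RNA kept in the nucleus, stood at 39149 CPM in KO and 77096 CPM in WT excitatory nuclei (-0.98) and at 59207 CPM in KO and 128382 CPM in WT astrocytes (-1.12). Over all nuclei it stood at 43994 CPM in KO naive, 91299 in WT naive, 63225 in KO SNI and 82915 CPM in WT SNI nuclei. The noncoding Meg3, abundant in neurons, went the other way in astrocytes, at 2870 CPM in KO and 866 CPM in WT nuclei (1.73). Nuclei differed also in mitochondrial UMIs, with 0.490% in the KO and 0.744% in the WT library. The SNI pair had a similar gap, with 0.477% in the KO SNI and 0.725% in the WT SNI library.

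The naive and SNI pairs share no library, and few genes were past 2-fold the same way in both. Of 7188 astrocyte genes tested in both pairs, 493 were higher in the naive and 47 (0.654%) in the SNI pair, 7 of them in both, and 184 and 26 (0.362%) were lower, 3 in both. Of 8888 in oligodendrocytes, 606 and 58 (0.653%) were higher, 10 in both, and 246 and 47 (0.529%) lower, 7 in both. Of 4302 in precursors, 71 and 18 (0.418%) were higher, 2 in both, and 106 and 39 (0.907%) lower, 3 in both. In microglia the pairs ran opposite ways. Of 7901 genes, 110 were higher in the naive and 159 (2.01%) in the SNI pair, none in both, and 366 and 16 (0.203%) were lower, 2 in both, while 77 of the 366 were past 2-fold higher in the SNI pair. Of 12785 in excitatory neurons, 96 and 57 (0.446%) were higher, 3 in both, and 669 and 29 (0.227%) lower, 9 in both. Of 11894 in inhibitory neurons, 94 and 31 (0.261%) were higher, none in both, and 586 and 27 (0.227%) lower, 5 in both. Of the naive-higher genes, 362 of 493 in astrocytes and 451 of 606 in oligodendrocytes lay above 0 in the SNI pair. Of the lower, 115 of 184 and 135 of 246 lay below 0 there. In microglia 51 of 110 higher and 102 of 366 lower genes kept their sign. Over genes with at least 200 UMIs in the 4 libraries, the Pearson correlation of the log2 ratios was -0.34 in microglia. In the other classes it was 0.18 to 0.29. What sets these values was not tested. The genes named next were picked from both pairs after their values were seen. In astrocytes the genes lower in both pairs were Gpr37l1, Gli1 and Cd27, a receptor of the tumour necrosis factor family, which stood at 11.6 CPM in KO and 42.4 CPM in WT naive nuclei (-1.87) and at -1.27 in the SNI pair. In oligodendrocytes they included Tnni1, Tmem163 at 44.1 CPM in KO and 135 CPM in WT nuclei (-1.61, and -2.03 in the SNI pair), and the small GTPase gene Rhoj at 41.5 CPM in KO and 113 CPM in WT nuclei (-1.45, and -1.16 in the SNI pair). Higher in both pairs in oligodendrocytes were, among others, Utrn, the dystrophin relative utrophin, at 1.01 and 1.08, and Dock11 at 1.43 and 1.12. Dock11 was also higher in astrocytes, at 1.03 and 1.19. In the WT SNI library Dock11 stood at 46.4 CPM in excitatory and 60.9 CPM in inhibitory neurons. It stood there at 9.56 CPM in oligodendrocytes and 16.4 CPM in astrocytes, and the part of neuron RNA in its ratios was not tested. 

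Of the oligodendrocyte genes that passed in both pairs, 3 lie within 1 Mb of Gpr37l1, out of 17 such genes; of the 8888 genes tested in both pairs, 19 lie in that window. The other classes had 1 of 18 tested there in astrocytes and 1 of 23 in excitatory neurons, Gpr37l1 itself in each, and 0 of 6 in precursors, 0 of 17 in microglia and 0 of 21 in inhibitory neurons. They are Tnni1, the aminopeptidase gene Rnpep (chromosome 1, 135262712 to 135284084) and Ppfia4 (134296783 to 134332928), a liprin. Rnpep stood at 19.3 CPM in KO and 48.5 CPM in WT naive oligodendrocytes (-1.33, -1.79 to -0.86) and at 25.4 CPM in KO SNI and 56.3 CPM in WT SNI (-1.15). Ppfia4 was higher, at 26.0 CPM in KO and 11.1 CPM in WT naive oligodendrocytes (1.22, 0.52 to 1.99) and at 1.19 in the SNI pair. Tmem163 lies 7.58 Mb from Gpr37l1 on the same chromosome. Within 5 Mb, 6 of 68 genes tested in at least 2 classes were past 2-fold the same way in at least 2, Gpr37l1 among them, and over the genome 878 of 12459. Klhl12, 0.69 Mb away, was lower in all 6 classes at -0.61 to -1.15, but was not among the genes past 2-fold the same way in both pairs. Effects of the deletion itself, of flanking sequence that differs between the KO and WT mice, and of differences between single libraries cannot be told apart here.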

How the data were processed

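Nuclei of the spinal dorsal horn were profiled with 10x 3' chemistry, 1 library a group; groups follow the sample titles. The deposited values are raw UMI counts by gene and barcode, made with Cell Ranger 7.0.0, per the file headers; the submitters' processing notes name GRCm38, Seurat 4.3.0 and R 4.3.0, with no role given. From these counts, barcodes passed with 300 or more genes and a mitochondrial share of UMIs below 5%, and doublets predicted per library with Scrublet in scanpy 1.11.5 (10% expected) were removed; in the KO SNI library the 90th percentile of the score served as threshold. All 4 libraries were clustered together without batch correction (3000 variable genes without list genes, mitochondrial genes and Malat1, 40 components, 20 neighbours, Leiden resolution 1, leidenalg 0.10.2), and clusters were named from marker genes, so names are rebuilt here. Counts were summed per class and scaled to CPM without mitochondrial genes; a count of 0 was set to 3 UMIs for a ratio. Ratio intervals are exact conditional binomial, levels exact Poisson and shares Clopper-Pearson, with scipy 1.17.1; they cover counting error only. No p-value was computed. Named genes are, per class, the 8 highest and 8 lowest of at least 100 UMIs, the 4 list members furthest from 0, the 10 highest and lowest across classes, genes past 2-fold in 1 class and within 1.25-fold in others, genes within 5 Mb of Gpr37l1, and further list members and genes past 2-fold in both pairs chosen after their values were seen. Classes, members and lists were chosen with earlier results of these data known. Alternatives were other clusterings and filters, thinning, TMM factors (edgeR 4.0.16), median-of-ratios factors and other UMI minimums. Some genes that these rules name are not reported here. Gene positions are those of the GRCm38 annotation.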

Additional observations from a re-analysis of the deposited data

Results flagged for a closer look

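The values below had opposite signs in the naive and the SNI pair, and the difference was not tested. In oligodendrocytes the log2 ratio of KO to WT for Hba-a1 was -4.86 in the naive and 2.29 in the SNI pair, and for Hbb-bs -4.20 and 2.36; both encode haemoglobin. In microglia Cd84 lay at -1.88 and 1.16, Anxa3 at -1.79 and 1.26, and F11r at -1.72 and 1.40. The microglial list medians were -1.08 and 0.99 for homeostatic genes and -0.60 and 0.75 for activated genes. Catspere1 in excitatory neurons lay at 5.99 and -4.08. Outside the named classes, cluster 2 had a KO to WT ratio of shares of 16.7 in the naive and 0.0583 in the SNI pair. What sets these values was not tested.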

How the results depend on the processing

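No paired analysis was possible because each group holds 1 library. The ratio of shares moved for astrocytes (0.712) to 0.795 with the naive pair clustered on its own, 0.883 with each library clustered on its own and 1.24, a reversal, with at least 1000 UMIs and 500 genes; for oligodendrocytes (0.9495) to 0.220, 1.34 and 1.42 under these, both last reversed, 0.767 at resolution 0.5 and 0.730 with doublets kept; for precursors (0.908) to 1.57 under the strict filter; for excitatory neurons (0.8999) to 0.980 with each library alone and 0.978 under the strict filter; and for inhibitory neurons (0.886) to 0.275 and 0.941. The microglial ratio moved under no alternative that gave one; the strict filter left microglia unnamed. Gpr37l1 in astrocytes (-6.07) lay at -6.50, -6.81 and -5.46 with the naive pair alone, each library alone and the strict filter. Genes past 2-fold numbered, with at least 200 UMIs and at least 1 UMI, 231 and 5927 in astrocytes (709), 540 and 6169 in oligodendrocytes (1136), 38 and 5601 in precursors (242), 129 and 5561 in microglia (480), 295 and 4806 in excitatory (848) and 214 and 4734 in inhibitory neurons (741), or 9.95% and 31.5% of the genes tested in astrocytes and 3.16% and 20.6% in excitatory neurons. Astrocytes had 457 with the naive pair alone and 1229 with each library alone, inhibitory neurons 1614 with each library alone, precursors 148 under the strict filter and 115 with nuclei thinned to 1000 UMIs, and microglia 153 thinned. Medians at least 0.2 from 0 on the log2 scale that changed sign were those of respiratory chain genes under the strict filter (0.0615 in oligodendrocytes, 0.16 in precursors), ribosomal genes in precursors under it (0.0689), immediate early genes in excitatory neurons (-0.10 under it, -0.079 with at least 1 UMI) and inhibitory neurons (-0.036 with doublets kept), and sex-linked genes in thinned oligodendrocytes (-0.17). Sign changes of medians closer to 0 than that are not listed. Meis1 in inhibitory neurons was -0.80 with each library alone. The cause was not tested. Of the values of single genes, 5014 stayed within the counting interval and 381 moved. The other UMI minimums change which genes are tested and not the ratio of a gene, so the values under them stayed by construction. In the counts with at least 1 UMI, the floor of 3 UMIs for a count of 0 can make or turn a call. Depth limits genes of few UMIs most, and 1 library a group leaves the spread between animals unknown.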
